A study of Homo sapiens with 12 samples.

Results

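DROSHA, DGCR8, XPO5, DICER1, TARBP2 and PRKRA, the 6 genes of microRNA processing and export, were followed by RNA-seq in HCT116, a line grown from a human colorectal carcinoma. They were chosen by name for their role, with earlier results of these data known, and 6 of 6 had a row among the 15074 Ensembl genes of the deposited tables. The 12 libraries fall into 4 groups of 3: AGO2_KO cells given back the 5xA mutant (genotype FH-AGO2_5xA, called FH-5xA), AGO2_KO cells given back wild-type AGO2 (FH-AGO2_WT, called FH-WT), AGO2_KO cells with nothing added back (knockout) and the parental cells, each harvested 48 h after seeding. FH names the tag of the returned protein, and the 5xA form has alanine in place of a cluster of phosphorylation sites. The first 3 groups all carry the knockout of AGO2. The study set out to find transcripts that differ between the mutant and the wild-type protein, and used the other groups as controls. Each group is 1 cell line grown in separate wells, so loss of AGO2 and other changes of the knockout line cannot be told apart; neither the number of clones behind a line nor the promoter that drives the returned AGO2 is given in the sources used here.

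MicroRNAs are cut out of long primary transcripts in the nucleus by the Microprocessor, in which the nuclease DROSHA is held to its hairpin by the RNA-binding protein DGCR8. Exportin 5, the product of XPO5, carries the precursor hairpin to the cytoplasm together with the GTPase RAN. There DICER1, aided by the double-stranded RNA-binding proteins TRBP (gene TARBP2) and PACT (gene PRKRA), cuts the hairpin to a duplex, from which 1 strand is loaded into an Argonaute such as AGO2.

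The tables hold fold changes and tests between groups and no value per library, which leaves sequencing depth unknown and means that overlap between single libraries cannot be stated. In bulk RNA fewer cells of a type and less RNA per cell cannot be told apart. Errors are standard errors (SE) derived from the deposited test scores, and a gene is called at a false discovery rate under 0.05. AGO2 itself was lower in the knockout than in parental cells by a log2 fold change of -0.35 ± 0.07 and higher than in the knockout by 0.73 ± 0.07 in FH-5xA and 0.75 ± 0.07 in FH-WT, in the authors' deposited tables. Of 12 markers of colon epithelium 7 had a row, and their summed level was 2216 CPM in FH-5xA, 2060 in FH-WT, 2342 in the knockout and 2912 in parental cells (CPM, counts scaled to library size). Of 8 blood markers 0 had a row, as against 1 of 8 fibroblast markers, 1 of 7 endothelial markers and 4 of 8 markers of embryonic kidney or neurons. The part of these marker levels in the results below was not tested.

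DICER1 was the member that moved most. Its mRNA was higher in the knockout than in parental cells and lower in both reconstituted lines than in the knockout. Its estimated level was 179 CPM in FH-5xA, 207 in FH-WT, 276 in the knockout and 188 in parental cells, with an SE of 0.05 to 0.06 on the log2 scale for each group. The knockout stood alone on the high side, and the other 3 groups lay between 179 and 207 CPM. DGCR8 was lowest in the knockout and highest in parental cells, with 71.4 CPM in FH-5xA, 74.3 in FH-WT, 65.1 in the knockout and 82.6 in parental cells. DROSHA stood at 97.2 CPM in FH-5xA, 92.1 in FH-WT, 85.5 in the knockout and 80.1 in parental cells. The exporter gene XPO5 stood at 145 CPM in FH-5xA, 137 in FH-WT, 137 in the knockout and 153 in parental cells. The DROSHA level was thus lowest and the XPO5 level highest in parental cells, by margins tested below. TARBP2 had 27.1 CPM in FH-5xA, 27.5 in FH-WT, 26.4 in the knockout and 28.3 in parental cells. PRKRA had 25.4 CPM in FH-5xA, 27.9 in FH-WT, 25.1 in the knockout and 27.8 in parental cells. By these estimates the 4 members DROSHA, XPO5, PRKRA and TARBP2 varied less between groups than DICER1 and DGCR8. The highest group level divided by the lowest was 1.21 for DROSHA, 1.12 for XPO5, 1.11 for PRKRA and 1.07 for TARBP2, against 1.54 for DICER1 and 1.27 for DGCR8. Differences between these ratios were not tested, and those of DROSHA and DGCR8 lie close together.

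**Figure D1:**
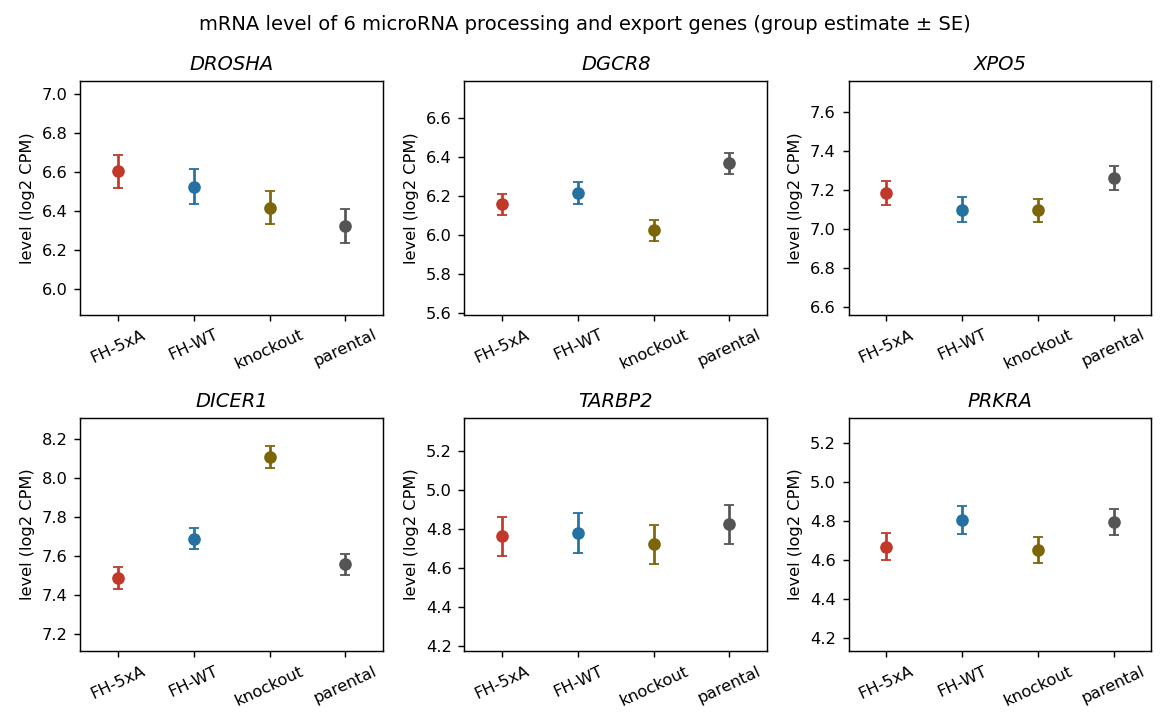
Estimated mRNA level of each member in log2 CPM (y axis) in FH-5xA, FH-WT, knockout and parental cells; points are group estimates of 3 libraries and bars are ± 1 SE. The DICER1 point of the knockout, at 8.11, lies above its other 3 groups, at 7.49 to 7.69.

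In knockout against parental cells, the authors' deposited table called 1 member higher and 1 lower. Over all genes 23.2% were called higher and 21.2% lower, 44.4% in either direction, so the share of members called was not above that of all genes. DICER1, on chromosome 14 from 95086228 to 95158010 (GRCh38, minus strand), was higher by 0.55 ± 0.08 (adjusted p = 1.95e-11), above 89.2% of all genes in the authors' deposited table. DGCR8, on chromosome 22 from 20080232 to 20111877 (plus strand), was lower by a log2 value of -0.34 ± 0.07 (adjusted p = 2.12e-05) in the authors' deposited table. Its partner nuclease was not called. DROSHA, on chromosome 5 from 31400497 to 31532196 (minus strand), had a log2 fold change of 0.09 ± 0.12 in the authors' deposited table, with a 95% interval of -0.15 to 0.33.

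For the other members of knockout against parental no call was made. The exporter XPO5 (chromosome 6, 43522330 to 43576075, minus strand) had -0.17 ± 0.09 and an adjusted p of 0.107 in the authors' deposited table, with an interval of -0.33 to 0.0038. The DICER1 partners TARBP2 (chromosome 12, 53500921 to 53506431, plus strand) and PRKRA (chromosome 2, 178431414 to 178451512, minus strand) stood at -0.10 ± 0.14 and -0.14 ± 0.09 in the authors' deposited table. Their intervals, -0.38 to 0.17 and -0.33 to 0.04, lie below the DICER1 estimate of 0.55. Over the 6 members the median was -0.12, and over all genes -0.01.

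When AGO2 was returned, 1 of 6 members was called, DICER1, and it fell in both lines. In FH-5xA against knockout it had a log2 fold change of -0.62 ± 0.08 (adjusted p = 6.42e-13), and only 1.14% of genes had a lower value in the authors' deposited table. FH-WT against knockout gave -0.42 ± 0.08 (adjusted p = 8.66e-06) in the authors' deposited table, with 4.60% of genes lower. Over all genes, 6.24% were called lower and 5.04% higher in FH-5xA against knockout (11.3% in either direction), and 5.85% lower and 4.21% higher in FH-WT against knockout (10.1%). These comparisons and knockout against parental share the 3 knockout libraries, so a chance value of those libraries enters all 3.

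Among the other 5 members 0 passed the test in either line, and their log2 values were positive, although that of XPO5 in FH-WT, at 0.0045, turned to -0.0015 when centred on the median gene. DGCR8 was at 0.13 ± 0.07 in FH-5xA (adjusted p = 0.256) and at 0.19 ± 0.08 in FH-WT (adjusted p = 0.0866) against knockout in the authors' deposited tables. DROSHA stood at 0.19 ± 0.12 and 0.11 ± 0.12, and XPO5 at 0.09 ± 0.09 and 0.0045 ± 0.09, in FH-5xA and in FH-WT against knockout in the authors' deposited tables. TARBP2 had 0.04 ± 0.14 in FH-5xA and 0.06 ± 0.14 in FH-WT, and PRKRA 0.02 ± 0.10 and 0.15 ± 0.10, in the same authors' deposited tables. By the deposited edgeR test at an unadjusted p under 0.05, 2 members passed in FH-WT against knockout (DICER1 and DGCR8) and 1 in FH-5xA against knockout (DICER1). Here and below, the share of all genes at that unadjusted cut-off was not counted, so these counts have no background beside them.

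**Figure D2:**
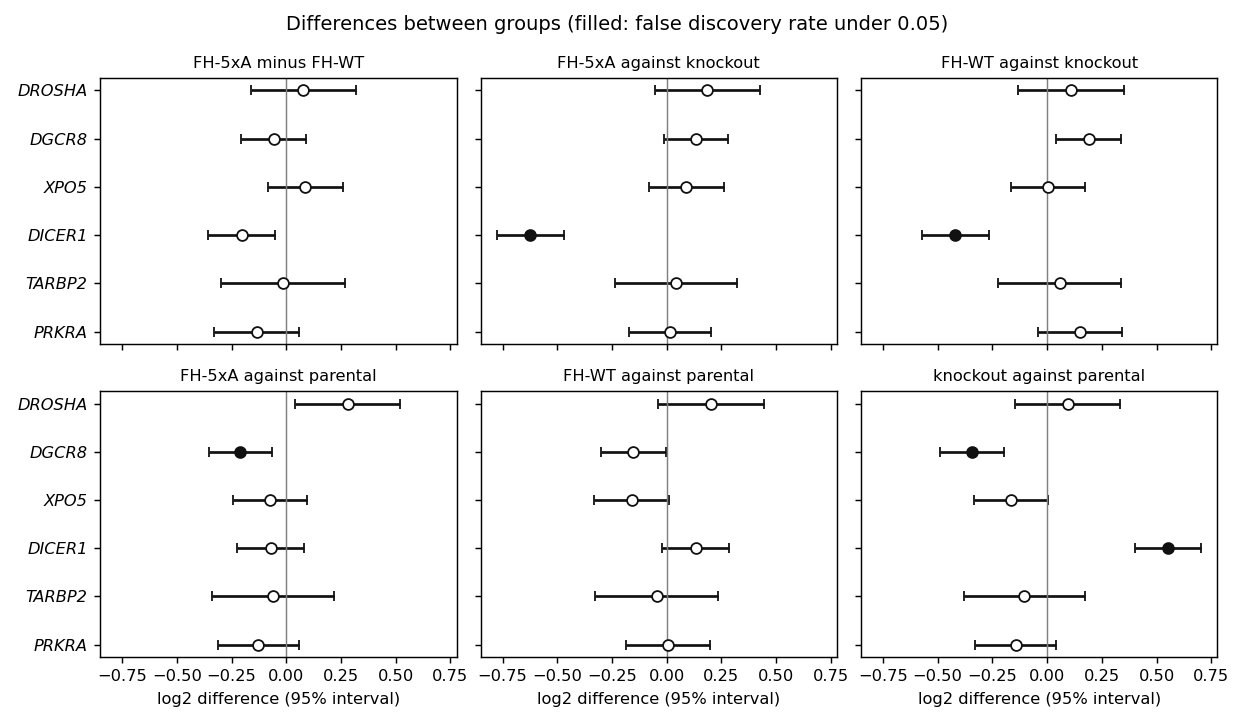
Log2 differences of the 6 members (x axis) in 6 comparisons; points are the estimates, bars the 95% intervals from the SE, and filled points pass a false discovery rate of 0.05. DICER1 is filled on the right in knockout against parental at 0.55 and on the left in FH-5xA and FH-WT against knockout at -0.62 and -0.42.

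Set against parental cells, DICER1 was not called in either reconstituted line. Its log2 fold change was -0.07 ± 0.08 in FH-5xA (adjusted p = 0.482, interval -0.22 to 0.08) and 0.13 ± 0.08 in FH-WT (adjusted p = 0.187, interval -0.02 to 0.29) in the authors' deposited tables. DGCR8 was lower in FH-5xA at -0.21 ± 0.07 (adjusted p = 0.0131), while FH-WT gave -0.15 ± 0.08 (adjusted p = 0.105), in the authors' deposited tables against parental. In FH-5xA against parental 20.9% of all genes were called lower and 22.9% higher, 43.8% in either direction. DROSHA lay next to the threshold there, at 0.28 ± 0.12 with an adjusted p of 0.0506 in the authors' deposited table, and 2 alternatives described in the closing section put it under 0.05.

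In FH-WT against parental 0 of 6 members were called by the deposited edgeR test, where 34.4% of all genes were (18.3% higher and 16.1% lower), and 1 (DGCR8) had an unadjusted p under 0.05. XPO5 had -0.07 ± 0.09 in FH-5xA and -0.16 ± 0.09 in FH-WT against parental in the authors' deposited tables. PRKRA had -0.13 ± 0.10 in FH-5xA and 0.01 ± 0.10 in FH-WT, and TARBP2 -0.06 ± 0.14 and -0.05 ± 0.14, in the authors' deposited tables against parental.

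Between the mutant and the wild-type protein no member differed beyond the threshold. The difference was derived from the deposited tables as FH-5xA minus FH-WT, with a chi-square test and Benjamini-Hochberg adjustment over 15072 genes. It called 4.11% of all genes (1.98% higher and 2.13% lower) and 0 of 6 members, of which 1, DICER1, had an unadjusted p under 0.05. DICER1 was at -0.20 ± 0.08, with an interval of -0.36 to -0.05 and an adjusted p of 0.108. The remaining derived differences were 0.09 ± 0.09 for XPO5, 0.08 ± 0.12 for DROSHA, -0.02 ± 0.14 for TARBP2, -0.06 ± 0.08 for DGCR8 and -0.14 ± 0.10 for PRKRA. Their intervals reach to 0.32 upward for DROSHA and to -0.33 downward for PRKRA, and differences of that size lie within what these data allow.

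Per kilobase of annotated exon, the members ranged from 6.38 to 22.5 CPM per kilobase over all groups. In parental cells XPO5 came first at 18.0 CPM per kilobase, followed by DICER1 at 15.3, DGCR8 at 11.3, DROSHA at 10.3, PRKRA at 7.05 and TARBP2 at 6.93. DGCR8 and DROSHA did not differ beyond the 95% interval of their log2 difference in parental cells, nor did PRKRA and TARBP2. In the knockout DICER1 came first at 22.5 CPM per kilobase, ahead of XPO5 in second place, DROSHA at 11.0, DGCR8 at 8.90, TARBP2 at 6.45 and PRKRA at 6.38, and only the last pair did not differ beyond that spread. FH-5xA ranked XPO5 (17.1) before DICER1 (14.6), while in FH-WT DICER1 (16.8) and XPO5 (16.1) did not differ beyond their spread. These ranks depend on the length used: with the length of 1 chosen transcript XPO5 came first in FH-WT, DROSHA (18.3 CPM per kilobase) stood before DICER1 (17.4) in FH-5xA, and in parental cells DGCR8 stood second at 18.3 CPM per kilobase and DROSHA last at 15.1.

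The 3′ untranslated regions of the members, the part of an mRNA that microRNAs mostly bind, differed widely in length and in the seed matches they hold. Matches to bases 2 to 8 of 25 microRNA families were searched on the mRNA strand of 1 GENCODE 29 transcript per gene, and an 8-base match has in addition an A opposite base 1. The region of DICER1 spans 4270 bases, longer than 90.1% of 11737 measured coding genes, whose median was 1147. It held 24 matches from 13 families, 5 of them with an 8-base match, while the 1327 genes with a region of similar length (within 25%) held matches from a median of 8 families. The miR-103 family, for which DICER1 is a textbook target, had 5 matches there, 4 of them of 8 bases. Its mature sequence (RefSeq, GRCh38.p14) is shown with the seed in capitals, and the 4 sites of DICER1 (chromosome 14, GRCh38, minus strand, read 5′ to 3′) with the 8 matched bases in capitals, because no other member holds an 8-base match of this family.
hsa-miR-103a-3p: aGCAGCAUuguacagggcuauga
DICER1, position 1034 of the 3′ untranslated region: atcacacctaaaatATGCTGCA
DICER1, position 1635: tgatgcttcgtggaATGCTGCA
DICER1, position 4110: atatttaccatcacATGCTGCA
DICER1, position 4162: ttcatacagtaatcATGCTGCA
Positions count from the first base after the stop codon to the first capital. In the order shown, the printed stretches lie at chr14:95089457-95089478, chr14:95088856-95088877, chr14:95086381-95086402 and chr14:95086329-95086350. The motif ATGCTGCA occurs in the 3′ untranslated region of 470 (4.0%) of the 11737 genes and of 10.02% of those of similar length to DICER1. Of the 11737 genes only 2, DICER1 and ZDHHC14, hold at least 4 such matches.

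Far fewer matches were found in the Microprocessor genes. DROSHA (935 bases) held a single 7-base match, of miR-27, and DGCR8 (1763 bases) held 2, of miR-27 and miR-31, while genes of similar length held a median of 2 and 4 families. XPO5 (1538 bases) held 9 families against a median of 3, and its single 8-base match, of miR-34, lay at position 81. The matches of miR-130, miR-148 and miR-34 near that position overlap each other, as do those of miR-19, miR-130 and miR-148 in DICER1 at positions 1446 to 1448. The XPO5 matches of miR-101 at position 979 and miR-27 at position 981 overlap too. TARBP2 (283 bases) held 3 families, among them a 7-base let-7 match, and its miR-103 and miR-16 matches are the same stretch shifted by 1 base. PRKRA (683 bases) held 3, with an 8-base match of miR-19. Genes of similar length held a median of 0 families for TARBP2 and 1 for PRKRA. No let-7 match lay in the region of DICER1. The 2 members with an 8-base match other than DICER1 are shown with the microRNA of the family, capitals marking seed and match.
hsa-miR-34a-5p: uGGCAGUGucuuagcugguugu
XPO5, position 81: ctaggcccttcttgCACTGCCA
hsa-miR-19b-3p: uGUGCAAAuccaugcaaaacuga
PRKRA, position 345: tgcttaagctcttcTTTGCACA
The XPO5 stretch lies at chr6:43523780-43523801 and the PRKRA stretch at chr2:178431745-178431766 (GRCh38, minus strands), and the microRNA sequences are from RefSeq (GRCh38.p14). An 8-base miR-34 match is found in 5.44% of the 11737 genes and in 5.74% of those of similar length to XPO5. For an 8-base miR-19 match the shares are 6.63% of all and 2.78% of those of similar length to PRKRA. A match is a run of letters and not evidence of binding, and its part in any of the changes above was not tested.

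**Figure D3:**
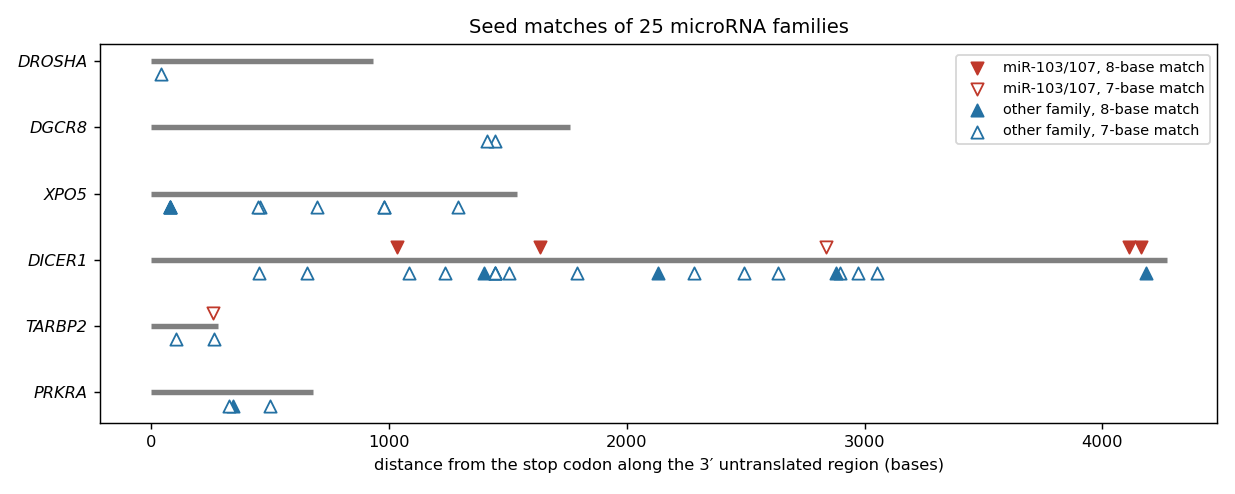
Position of seed matches along the 3′ untranslated region of each member (x axis, bases from the stop codon; grey lines to scale); red triangles above the line are miR-103, blue triangles below it are the other 24 families, and filled triangles are 8-base matches. DICER1 carries 4 filled red triangles on a region of 4270 bases.

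MicroRNA hairpins also lie inside 2 of the members. MIR3173 lies in an intron of DICER1 (chromosome 14, 95137919 to 95137986), and MIR3618 lies in an exon of DGCR8, within the 5′ untranslated region (chromosome 22, 20085746 to 20085833), both on the strand of the host gene. The DGCR8 hairpin matters as background because the Microprocessor is known to cleave the DGCR8 mRNA at hairpins in its 5′ part. Its mature product (RefSeq, GRCh38.p14) is given with the seed in capitals.
hsa-miR-3618: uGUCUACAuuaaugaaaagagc

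The genes around DICER1 did not share its called changes, nor did those around DGCR8 in knockout against parental. Within 5 Mb of either side, 46 neighbours of DICER1 had a median log2 fold change of -0.05 in knockout against parental in the authors' deposited table, where DICER1 was at 0.55. In FH-5xA and in FH-WT against knockout those neighbours had medians of 0.05 and 0.04 in the authors' deposited tables, where DICER1 was at -0.62 and -0.42. For DGCR8, 81 neighbours had a median of -0.03 in knockout against parental in the authors' deposited table, against its own -0.34. In FH-5xA against knockout the same 81 neighbours had a median of 0.14, beside an uncalled 0.13 for DGCR8, in the authors' deposited table. Members on chromosome 7, whose arms shifted as blocks in the knockout, numbered 0.

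Pattern likeness was measured as the distance between the 3 log2 fold changes against parental (FH-5xA, FH-WT, knockout) among 10344 genes with a mean of at least 3 log2 CPM, which describes 4 groups only. The nearest genes to DICER1 were GLRX at a distance of 0.08, AK4 at 0.13 and FKBP7 at 0.14, and 34 genes lay within 0.2. DGCR8 had SUMO3, COPS8P2 and RAB4A nearest, DROSHA had CRAMP1, TMEM41B and FAM83G, and XPO5 had CHDH, SERBP1 and KRT10-AS1. For TARBP2 they were NCKIPSD, CNIH1 and ATP1B3, and for PRKRA DTWD1, MRPL16 and SREK1. Within 0.2 of these 5 members lay 733 (DROSHA) to 2008 (TARBP2) genes. With a fixed radius, small fold changes alone place a member near many genes, so these counts do not describe a pattern.

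Other genes of microRNA biogenesis were grouped by role in 4 lists of 59 genes, of which 55 had a row. In knockout against parental 10 were called higher and 21 lower, 56.4% in either direction, beside 44.4% of all genes. In FH-5xA against knockout 3 were called higher and 4 lower, and in FH-WT against knockout 5 higher and 3 lower, by the deposited test. These are 12.7% and 14.5% of the 55 genes, beside 11.3% and 10.1% of all genes. AGO2, altered by design, is among the 55 genes and is counted in all 3 of these shares. In each role below, the counts in knockout against parental stand beside 23.2% of all genes called higher and 21.2% called lower.

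Among 20 partners and regulators of the Microprocessor, 1 was higher and 8 lower in knockout against parental (median -0.12, all genes -0.01). ILF2, a regulator of primary microRNA processing, fell by 0.55 ± 0.07, and the RNA-binding protein QKI rose by 0.62 ± 0.10, in the authors' deposited table. HNRNPA2B1, which binds methylated primary microRNAs, was at -0.92 ± 0.14 in the authors' deposited table. It lies in the left part of chromosome 7, up to 50 Mb, where 226 genes had a median of -0.90 in that table. In FH-5xA against knockout 1 of these partners was higher and 1 lower, and in FH-WT 1 was higher.

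Of 7 genes of nuclear export, 6 were lower in knockout against parental and 0 higher (median -0.30; 6 at an unadjusted p under 0.05). RCC1, the exchange factor that charges RAN with GTP, was at -0.58 ± 0.07, RANBP1 at -0.50 ± 0.09, RANGAP1 at -0.43 ± 0.11 and RAN at -0.30 ± 0.08 in the authors' deposited table. Their fall stands beside an XPO5 value of -0.17 that was not called. RCC1 was higher with either protein, by 0.35 ± 0.07 in FH-5xA and 0.36 ± 0.07 in FH-WT against knockout in the authors' deposited tables. RANBP1 was at -0.01 ± 0.09 in FH-5xA, with no call, and was called higher in FH-WT at 0.31 ± 0.09, in the authors' deposited tables against knockout. RANGAP1 (0.19 ± 0.11 in FH-5xA and 0.08 ± 0.11 in FH-WT) and RAN (0.0096 ± 0.08 and 0.04 ± 0.08) were not called there in the authors' deposited tables.

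The 16 Argonaute and loading genes split in knockout against parental, with 3 higher and 6 lower (median -0.19). AGO2 itself, altered by design, is among the 6 lower. AGO4, AGO3 and AGO1 were higher by 0.59 ± 0.11, 0.41 ± 0.07 and 0.26 ± 0.08 in the authors' deposited table. TSN, the translin subunit of a nuclease complex, fell by 0.36 ± 0.07 in the authors' deposited table. Like DICER1, AGO4 fell in FH-5xA (-0.44 ± 0.11) and in FH-WT (-0.48 ± 0.11) against knockout, and so did AGO1 (-0.27 ± 0.08 in each), whereas AGO3 was not called (-0.06 ± 0.07 and -0.10 ± 0.07), in the authors' deposited tables.

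Of 16 genes that tail or degrade precursors and mature microRNAs 12 had a row, and 6 of these were higher and 1 lower in knockout against parental (median 0.28). The exonuclease ERI1 rose by 0.63 ± 0.07, the exonuclease XRN1 by 0.48 ± 0.08 and ZSWIM8, the receptor of target-directed microRNA decay, by 0.41 ± 0.10 in the authors' deposited table. SND1, a nuclease of edited precursors, was at 0.83 ± 0.07 in the authors' deposited table and lies in the right part of chromosome 7, beyond 70 Mb, where 454 genes had a median of 0.49. ERI1 was lower again in FH-5xA (-0.23 ± 0.07) and in FH-WT (-0.42 ± 0.07) against knockout in the authors' deposited tables. The part of the chromosome 7 shift in the values of SND1 and HNRNPA2B1 was not tested.

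Between FH-5xA and FH-WT, 3 of the 55 genes differed in the derived test, all lower in FH-5xA. RANBP1 was at -0.32 ± 0.09 (Benjamini-Hochberg adjusted p = 0.0232), QKI at -0.33 ± 0.10 (adjusted p = 0.0429) and the chaperone gene DNAJA1 at -0.28 ± 0.09 (adjusted p = 0.0446). They make up 5.45% of the 55 genes, beside 4.11% of all genes.

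**Figure D4:**
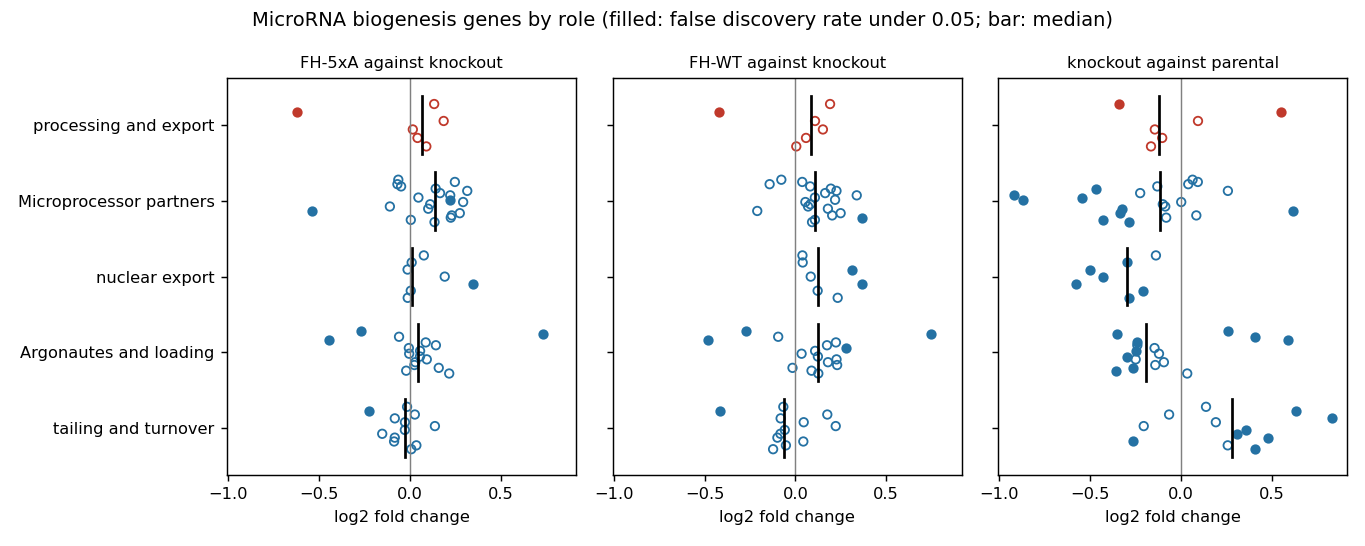
Log2 fold changes (x axis) of the 6 processing and export genes (red) and of 55 other biogenesis genes by role (blue) in FH-5xA against knockout, FH-WT against knockout and knockout against parental; each point is a gene, filled points pass a false discovery rate of 0.05 and black bars are medians. In knockout against parental the nuclear export genes have a median of -0.30 and the tailing and turnover genes 0.28.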

How the data were processed

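The data were 5 tables of the authors' own comparisons of groups of 3 libraries. Per the file headers, the columns deposited for each gene are its log2 fold change, its mean level (log2 CPM, the same value in every table), the score of a likelihood ratio test, the p-value and the adjusted p. The submitters' processing notes name edgeR 3.8.6, featureCounts 1.4.6, TopHat2 2.0.12 and Cufflinks 2.2.1, and the build hg38/GRCh38. The sources used here give neither annotation nor count filter, scaling or strand of counting, so reads of overlapping genes may be split between them.

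An SE was taken as the absolute log2 fold change divided by the square root of the score. Squared SEs of the 5 tables were solved by least squares for 4 group variances, which gave the error of FH-5xA minus FH-WT. This error was undefined for 2 genes. On simulated counts with an assumed depth and a known dispersion, the derived test called 58% of planted log2 differences of 0.5. It called 91% of those of 1 and 0.087% of genes with none. Smaller differences were not simulated. Group levels assume that the deposited mean CPM is the mean over groups. The p-values cover wells of 1 line per group. Symbols came from a symbol table (14974 matched), positions, transcripts and exon lengths from GENCODE 29 (15029 matched). Analyses used Python 3.11.15, scipy 1.17.1 and pandas 2.3.3. Named genes were the 6 members, AGO1 to AGO4, the 4 genes per list with the smallest p in knockout against parental, list genes that passed the FH-5xA minus FH-WT test, and the 3 genes nearest each member; ZDHHC14 was named after its values were seen. A gene that this rule names is not reported here. Members, lists and tests were chosen with earlier results of these data known.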

Additional observations from a re-analysis of the deposited data

How the results depend on the processing

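No paired analysis was possible because the deposited tables hold no values per library, and no replicate could be left out for the same reason. Of 192 member results under other settings, 188 kept their side of the threshold. That count was in part fixed in advance. A false discovery rate under 0.01 or a minimum fold change can only remove a call, so uncalled results could not change under them. Only centring on the median gene alters a fold change itself, while the other settings alter the threshold, the adjustment or the SE. Under centring 1 of the 188 turned its sign (XPO5 in FH-WT against knockout, at -0.0015, uncalled both times). In FH-5xA against parental, members called lower dropped to 0 (DGCR8) at a false discovery rate under 0.01 and also when an absolute log2 fold change of at least 0.3 was asked for. Members called higher there became 1 (DROSHA, adjusted p = 0.0491) when only genes with a mean of at least 1 log2 CPM were kept and 1 (adjusted p = 0.0487) when fold changes were centred on the median gene. The first tests fewer genes. The second moves DROSHA from 0.2796 to 0.2817, since the median gene stood at -0.0021. Leaving out chromosome 7 changed no member's call, but 0 members lie there, so only the adjustment could move. Summing squared SEs against knockout or against parental adds the variance of the shared group, which enlarges the SE. The FH-5xA minus FH-WT calls stayed at 0, a count that such a change could hardly raise. Restricting seed matches to 8 bases left 5 families in DICER1, 1 each in XPO5 and PRKRA, and 0 in DROSHA, DGCR8 and TARBP2, since it asks for a longer match. The order by level per kilobase with the length of 1 transcript was chosen after seeing the data. Depth per library is unknown, and the SE of the members, 0.07 to 0.14, limits what can be told apart.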

Other observations

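Genes that share the 8-base miR-103 match with DICER1 were described after the values of DICER1 were seen, with no test. The 470 measured coding genes with at least 1 such match had a median log2 fold change of 0.10 in knockout against parental, with 170 called higher and 85 lower in the authors' deposited table. All 11737 coding genes with a 3′ untranslated region had a median of 0.0035 in that table, with 3067 higher and 2566 lower. In FH-5xA and FH-WT against knockout the 470 genes had medians of -0.04 and -0.05, with 53 called lower in each and 16 and 7 called higher in the authors' deposited tables. All 11737 genes had medians of -0.0024 and -0.0046 there, with 879 and 828 called lower and 550 and 482 called higher. The median of FH-5xA minus FH-WT was 0.01, with 12 genes higher and 3 lower in the derived test, beside 0.0081, 245 higher and 249 lower over all 11737 genes. The other families with an 8-base match in DICER1 had medians of the same sign in knockout against parental in the authors' deposited table. They were 0.19 for miR-18 (205 genes), 0.11 for miR-141 (622), 0.09 for miR-221 (406) and 0.07 for miR-29 (393). A positive median was thus not limited to the miR-103 genes. Families without an 8-base match in DICER1 were not described, and every one of these gene sets includes DICER1.

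ZDHHC14, the other gene with at least 4 of these matches, was higher in knockout against parental by 0.45 ± 0.13 in the authors' deposited table, but in FH-5xA and FH-WT against knockout it stood at 0.18 ± 0.12 and 0.15 ± 0.13, with no call in the authors' deposited tables. Longer regions hold more matches of every kind, and length was not separated from the match in these medians.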
